A study of Homo sapiens with 20 samples.

Results

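The genes described here encode ligands through which natural killer (NK) cells read a myeloma cell, together with PD-L1. They are MICA, MICB, ULBP1, ULBP2 and ULBP3, which bind the activating receptor NKG2D, PVR (CD155) and NECTIN2 (CD112), which bind the activating receptor DNAM-1, NCR3LG1 (B7-H6), which binds the activating receptor NKp30, and CD274 (PD-L1), which binds the inhibitory receptor PD-1. They were chosen by symbol, as 9 of the 18305 genes in the table, and all 9 were found and passed the filter on low values. ULBP2 and CD274 passed it through ARH-77 alone, as did ULBP1. RNA was sequenced from 20 libraries in 10 groups of 2 biological replicates. Parental (WT) and bortezomib-resistant (BtzR) cells came from 4 lines, of which ARH-77 is B-lymphoblastoid and the others (RPMI-8226, L363 and AMO1) are myeloma. AMO1 and L363 also had carfilzomib-resistant (CfzR) cells. Every resistant line was kept in 90 nM of its drug and no WT line was, so evolved resistance and the presence of drug cannot be told apart, and each resistant group is 1 evolved line. All cells were grown in RPMI-1640 with 10% serum.

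Bortezomib and carfilzomib both block the proteasome, the first reversibly through a boronate and the other irreversibly through an epoxyketone. NKG2D ligands are stress-induced relatives of the HLA class I proteins, and NK cells kill cells that display enough of them. PVR and NECTIN2 are cell adhesion molecules that also engage the inhibitory receptors TIGIT, CD96 and PVRIG, so their net effect depends on the receptors of the NK cell. RNA levels do not show how much of a ligand is at the surface, since MICA and MICB in particular are shed by proteases.

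The libraries labelled AMO1 CfzR stood apart from their label. On log2(FPKM + 1) over the tested genes they correlated with the L363 libraries at r = 0.986 to 0.992 and with the other AMO1 libraries at r = 0.878 to 0.883, while replicates within a group correlated at 0.986 to 0.998. They are therefore called "labelled AMO1 CfzR" and are set against both AMO1 WT and L363 WT. FPKM summed to between 457317 and 494850 per library, and 10455 to 11023 genes reached 1 FPKM. Of 7 plasma cell markers, 7 reached 1 FPKM in both libraries of every AMO1 and L363 group and 6 in the RPMI-8226 groups, where SLAMF7 lay between 0.27 and 0.82 FPKM. The ARH-77 groups also had 6 of 7, so this count does not separate them from RPMI-8226. ARH-77 expressed 5 of 5 B-cell markers, with a summed level of 366 to 500 FPKM, whereas the myeloma groups had at most 1 of 5, CIITA. ARH-77 also had 9 of 13 NK-cell and T-cell markers at 1 FPKM or more in both libraries.

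Promoter sequence is shown for the pair of genes that rose together in RPMI-8226 BtzR and lie close together on chromosome 19, NECTIN2 and PVR, for the MICA and MICB pair, and for NCR3LG1, whose RNA was near 0 in some lines and high in others. Each window runs from 250 bases before to 20 bases after the RefSeq start (GRCh38.p14), written 5′ to 3′ on the gene's strand, and all 5 genes lie on the plus strand. Capitals mark matches, on either strand, to the cAMP response element TGACGTCA, AP-1 TGANTCA, GC box GGGCGG, heat shock element GAANNTTC, CCAAT box CCAAT, E-box CACGTG, ISRE-like element (TTTC, any 2 bases, TTTC) or TATA box TATAAA.
NECTIN2, chr19:44846047-44846316: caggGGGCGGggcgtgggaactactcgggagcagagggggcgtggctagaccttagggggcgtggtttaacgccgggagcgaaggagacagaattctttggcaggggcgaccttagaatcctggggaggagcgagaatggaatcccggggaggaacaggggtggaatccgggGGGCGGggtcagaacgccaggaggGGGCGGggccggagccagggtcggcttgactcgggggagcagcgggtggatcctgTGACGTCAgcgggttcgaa
PVR, chr19:44643660-44643929: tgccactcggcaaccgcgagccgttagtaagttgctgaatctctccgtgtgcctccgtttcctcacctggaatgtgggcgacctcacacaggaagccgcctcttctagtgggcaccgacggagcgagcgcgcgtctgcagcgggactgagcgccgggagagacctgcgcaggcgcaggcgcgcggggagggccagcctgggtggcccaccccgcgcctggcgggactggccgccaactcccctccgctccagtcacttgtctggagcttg
MICA, chr6:31403345-31403614: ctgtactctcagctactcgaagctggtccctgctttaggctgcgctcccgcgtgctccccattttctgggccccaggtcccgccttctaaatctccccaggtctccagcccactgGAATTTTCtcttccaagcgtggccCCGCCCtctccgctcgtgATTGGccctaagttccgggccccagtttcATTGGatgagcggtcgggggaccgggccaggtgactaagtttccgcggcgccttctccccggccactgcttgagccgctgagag
MICB, chr6:31497895-31498164: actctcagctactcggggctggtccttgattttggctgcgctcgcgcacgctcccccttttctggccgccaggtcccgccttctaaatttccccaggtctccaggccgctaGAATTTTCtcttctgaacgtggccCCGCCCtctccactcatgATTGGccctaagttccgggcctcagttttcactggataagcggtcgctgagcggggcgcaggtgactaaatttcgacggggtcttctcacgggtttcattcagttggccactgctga
NCR3LG1, chr11:17351550-17351819: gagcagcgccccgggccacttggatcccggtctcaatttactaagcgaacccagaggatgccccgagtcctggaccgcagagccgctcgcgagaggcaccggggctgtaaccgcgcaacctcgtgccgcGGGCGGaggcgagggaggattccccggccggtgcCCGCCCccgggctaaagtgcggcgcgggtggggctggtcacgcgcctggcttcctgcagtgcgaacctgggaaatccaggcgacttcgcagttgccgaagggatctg

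The NECTIN2 window held a cAMP response element, which begins at base 2 after the start and is found in 2.7% of the 14545 promoter windows of the same length, and 3 GC boxes, a motif found in 60.0% of windows. The PVR window held none of the 8 motifs. MICA and MICB each held a heat shock element, the site bound by the heat shock factor HSF1, at base -135 and base -139. That motif was found in 4.9% of windows. Among the genes whose windows are not printed, the CD274 window held 2 overlapping ISRE-like matches (3.0% of windows), and the ULBP2 and ULBP3 windows each held an AP-1 match (5.2% of windows). These are matches of letters, and no binding was measured.

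**Figure D1:**
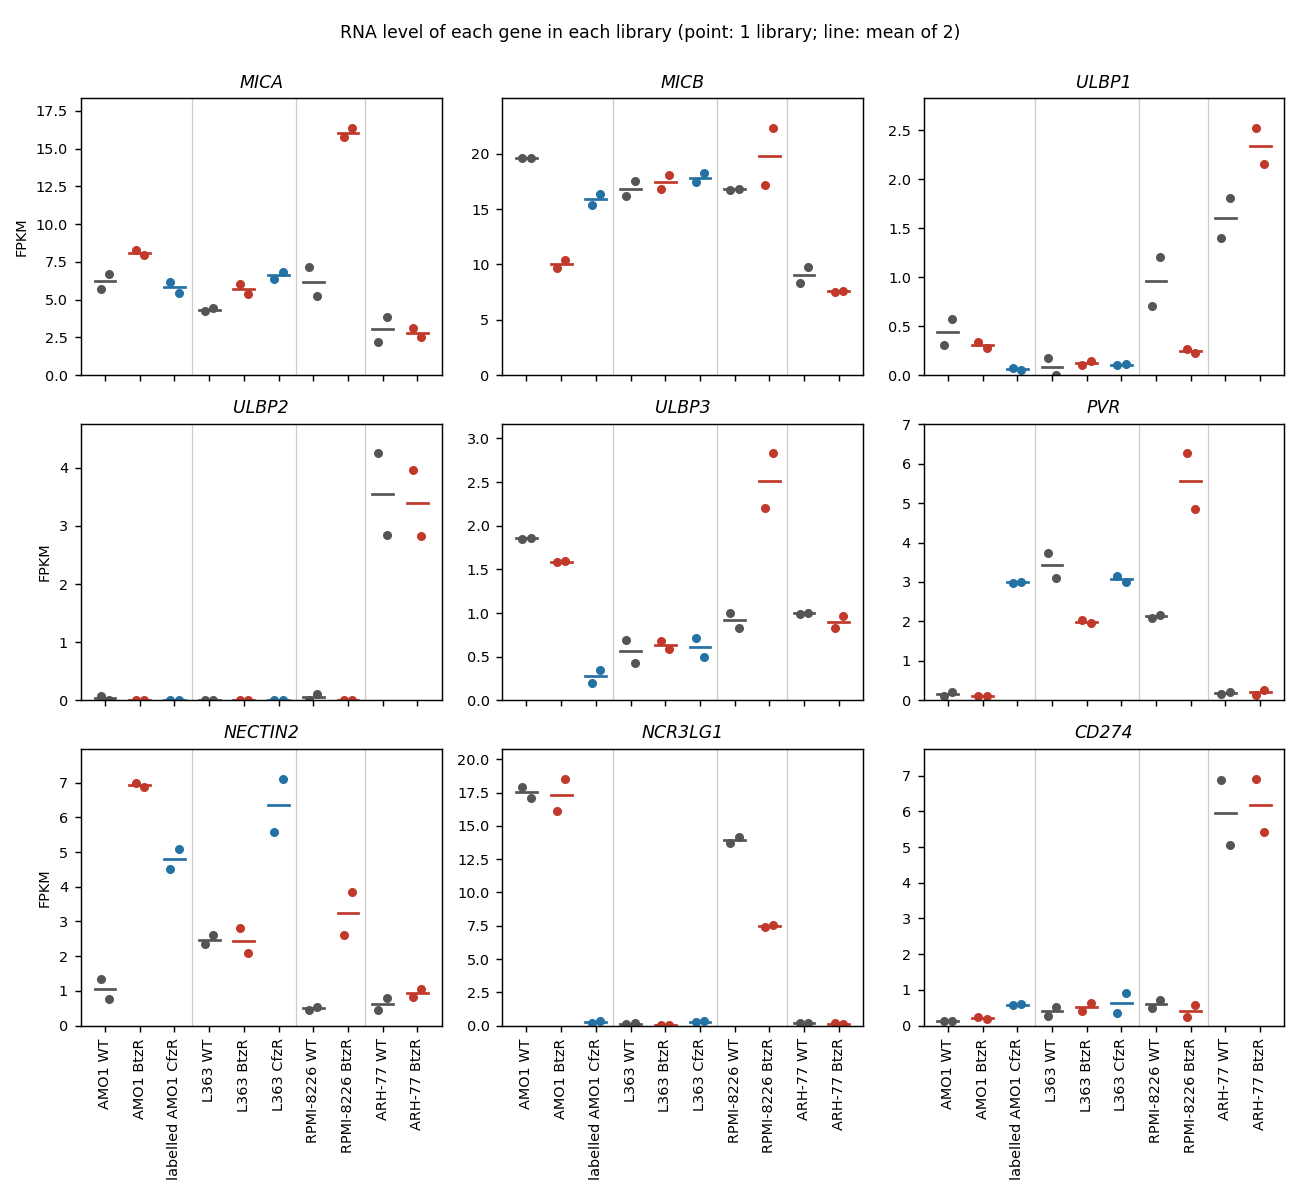
FPKM (y axis, own scale in each panel) of the 9 genes in the 10 groups (x axis), with 1 point per library and a line at the mean of 2. NECTIN2 is higher in AMO1 BtzR, RPMI-8226 BtzR and L363 CfzR than in the WT cells of the same line, NCR3LG1 is above 7 FPKM only in AMO1 WT, AMO1 BtzR and the RPMI-8226 groups, and ULBP2 and CD274 are above 1 FPKM only in ARH-77.

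Of the DNAM-1 ligands, NECTIN2 was called in BtzR cells of AMO1 and RPMI-8226, and PVR in RPMI-8226. In AMO1, NECTIN2 measured 1.35 and 0.76 FPKM in WT and 6.98 and 6.87 FPKM in BtzR. The BtzR libraries were both far above the WT libraries, a log2-fold change of 1.96 (SE 0.173, limma adjusted p = 3.9e-07) and a ratio of mean FPKM of 6.56. In RPMI-8226, NECTIN2 went from 0.45 and 0.54 FPKM in WT to 2.61 and 3.86 FPKM in BtzR. The groups again did not overlap, with a log2-fold change of 1.49 (SE 0.173, limma adjusted p = 4.1e-06) and a ratio of 6.54. L363 BtzR did not share this. There NECTIN2 was 2.34 and 2.61 FPKM in WT and 2.81 and 2.09 FPKM in BtzR, overlapping groups with a log2 difference of -0.02 (95% interval -0.39 to 0.35). In ARH-77 it was 0.44 and 0.80 FPKM in WT and 0.81 and 1.06 FPKM in BtzR, a log2 difference of 0.26 (95% interval -0.11 to 0.63). Throughout, log2-fold changes and their SE are on the log2(FPKM + 1) scale, which understates changes of low genes, and a gene was called where the adjusted p was under 0.05 and the log2-fold change was 1 or more in either direction.

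PVR behaved differently from NECTIN2 in AMO1 and in L363. In RPMI-8226 it rose from 2.08 and 2.17 FPKM in WT to 6.26 and 4.84 FPKM in BtzR, with a log2-fold change of 1.06 (SE 0.103, limma adjusted p = 5.8e-07). Without BtzR replicate 1 the change was 0.90, below the fold threshold. In AMO1 it stayed low, at 0.12 and 0.20 FPKM in WT and 0.10 and 0.12 FPKM in BtzR. In L363 it was lower in BtzR, at 2.03 and 1.95 FPKM, than in WT, at 3.74 and 3.11 FPKM. That difference of -0.56 (limma adjusted p = 0.00190) passed the test but not the fold threshold. In ARH-77 PVR lay between 0.14 and 0.27 FPKM in all 4 libraries. The difference between BtzR and WT varied between the 4 lines for both genes, by a moderated F test of the interaction in limma (adjusted p = 1.3e-05 for NECTIN2 and 1.8e-06 for PVR), a test that 71.1% of all genes passed. With 1 evolved line per BtzR group, it cannot tell a dependence on the parental line from differences between single evolved lines.

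Summed over both genes, DNAM-1 ligand RNA was 1.47 and 0.96 FPKM in AMO1 WT and 7.08 and 6.99 FPKM in AMO1 BtzR, where NECTIN2 made up 98.6% and 98.3% of it. In RPMI-8226 the sum went from 2.53 and 2.71 FPKM to 8.87 and 8.70 FPKM, and NECTIN2 made up 29.4% and 44.4% in BtzR. So both resistant lines had sums several times those of their WT cells, carried almost wholly by NECTIN2 in AMO1 and shared with PVR in RPMI-8226. In bulk RNA, fewer cells with a transcript and less transcript per cell cannot be told apart.

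**Figure D2:**
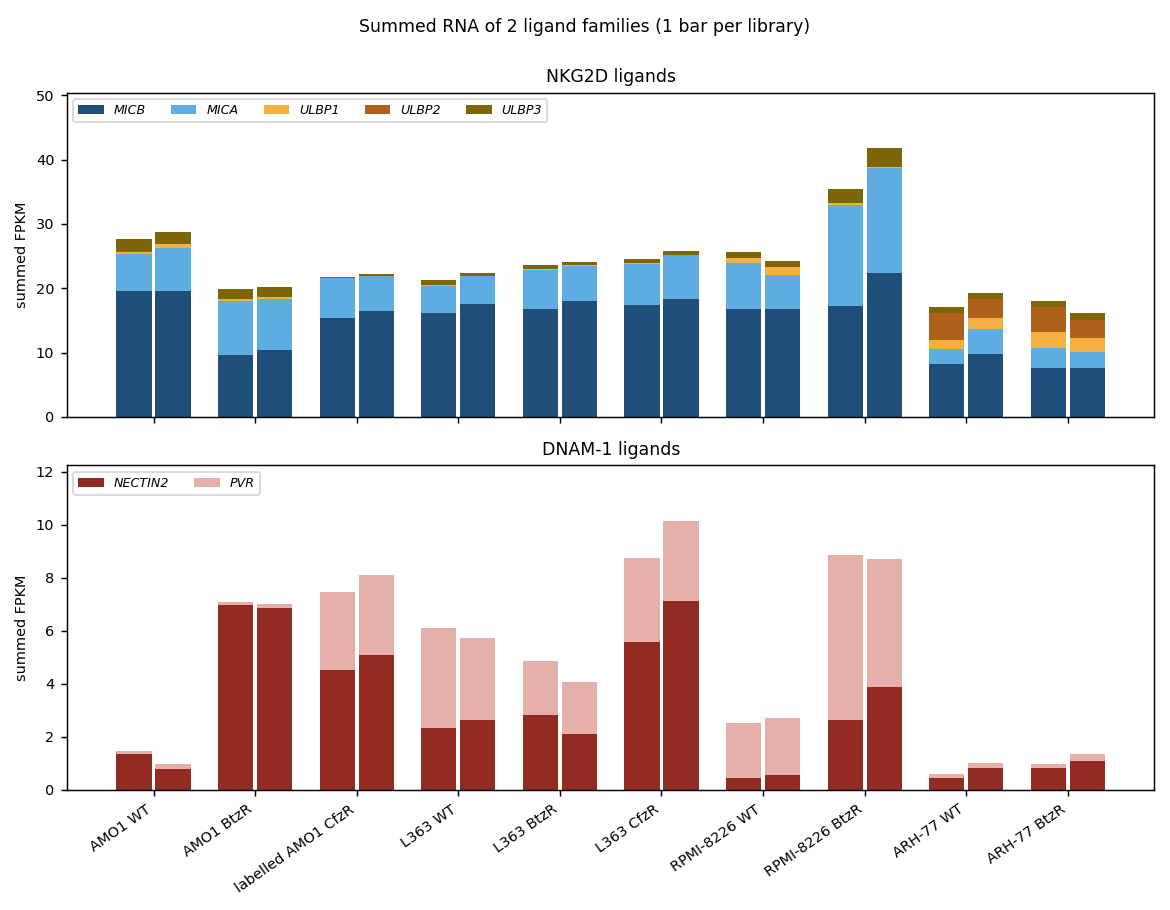
Summed FPKM (y axis) of the NKG2D ligand genes (top) and of the DNAM-1 ligand genes (bottom), with 1 stacked bar per library and each colour 1 gene. The DNAM-1 ligand sum in AMO1 BtzR (7.08 and 6.99 FPKM) is nearly all NECTIN2, and the ULBP genes take a visible share of the NKG2D ligand sum in ARH-77, where they make up 29.4% to 40.7%. The ULBP2 part of that share is uncertain, since 32.2% of its 50-base windows also occur in other genes.

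Among the NKG2D ligands, MICA and MICB carried most of the RNA in the myeloma lines. MICA was called in RPMI-8226 BtzR, at 7.17 and 5.21 FPKM in WT and 15.74 and 16.36 FPKM in BtzR, a log2-fold change of 1.26 (SE 0.167, limma adjusted p = 1.6e-05). Those are the highest MICA values of the 20 libraries. The MICA libraries of BtzR also lay above WT without overlap in AMO1 (5.72 and 6.69 FPKM against 8.28 and 7.96 FPKM) and L363 (4.24 and 4.43 FPKM against 6.06 and 5.36 FPKM), but the log2 differences of 0.34 (limma adjusted p = 0.103) and 0.33 (limma adjusted p = 0.260) did not pass the test. In ARH-77 the groups overlapped, at 2.21 and 3.85 FPKM in WT and 3.13 and 2.51 FPKM in BtzR.

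MICB moved the other way in AMO1. It was 19.65 and 19.64 FPKM in WT and 9.67 and 10.41 FPKM in BtzR, a ratio of 0.511. The log2 difference of -0.90 (SE 0.106, limma adjusted p = 6.7e-06) passed the test and fell short of the fold threshold. In L363 (16.15 and 17.54 FPKM in WT, 16.79 and 18.06 FPKM in BtzR) and in RPMI-8226 (16.75 and 16.85 FPKM in WT, 17.22 and 22.32 FPKM in BtzR) the differences were 0.05 (95% interval -0.18 to 0.27) and 0.21 (95% interval -0.02 to 0.44). As a result the ratio of MICA to MICB FPKM, 0.291 and 0.341 in AMO1 WT, was 0.856 and 0.765 in AMO1 BtzR, and in RPMI-8226 it went from 0.428 and 0.309 to 0.914 and 0.733. In RPMI-8226 MICA was called and MICB was not, whereas in AMO1 the lower MICB outweighed MICA in the sum. The NKG2D ligand sum was 27.6 and 28.8 FPKM in AMO1 WT and 19.9 and 20.3 FPKM in BtzR, and 25.6 and 24.2 FPKM in RPMI-8226 WT and 35.4 and 41.7 FPKM in BtzR. The transcripts of the pair share few 50-base stretches with another gene (2.6% of MICA and 2.8% of MICB windows in GENCODE 29), so their FPKM values are mostly their own.

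The ULBP genes were lower. ULBP3 in RPMI-8226 was 1.00 and 0.83 FPKM in WT and 2.2 and 2.83 FPKM in BtzR, a log2 difference of 0.87 (limma adjusted p = 7.7e-06), past the test and short of the fold threshold. ULBP1 in the same line was 0.71 and 1.21 FPKM in WT and 0.27 and 0.23 FPKM in BtzR, a difference of -0.64 (limma adjusted p = 4.9e-04). The 2 genes thus moved in opposite directions in that line, each without overlap. With a pseudocount of 0.1 both were called, at 1.36 and -1.56, and with 0.01 ULBP3 was called (1.44) and ULBP1 did not pass the test (-1.85, limma adjusted p = 0.0901). In ARH-77, ULBP1 was 1.40 and 1.81 FPKM in WT and 2.52 and 2.15 FPKM in BtzR, with a log2 difference of 0.36 that did not pass the test (limma adjusted p = 0.0711). ULBP2 was listed at 0 in 14 of 20 libraries and reached 4.25 and 2.85 FPKM in ARH-77 WT and 3.97 and 2.82 FPKM in ARH-77 BtzR. Of its 50-base windows 32.2% also occur in other genes, 29.4% in RAET1L, so its level is uncertain. Of the other NKG2D ligand genes RAET1E, RAET1G and RAET1L, 0 of 3 passed the filter.

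NCR3LG1, the NKp30 ligand, was present or nearly absent by line. It was 17.95 and 17.12 FPKM in AMO1 WT and 13.68 and 14.13 FPKM in RPMI-8226 WT, and 0.12 and 0.17 FPKM in L363 WT and 0.17 and 0.20 FPKM in ARH-77 WT. The first pair of lines does not approach the other pair. In AMO1 BtzR it was 16.11 and 18.56 FPKM, overlapping WT. In RPMI-8226 BtzR it was 7.38 and 7.57 FPKM, lower than WT with a log2 difference of -0.81 (SE 0.0857, limma adjusted p = 1.4e-06) and a ratio of 0.538, again below the fold threshold. RPMI-8226 BtzR therefore had higher MICA, PVR and NECTIN2 and lower NCR3LG1 than its WT cells. NCR3, which encodes the receptor NKp30, was listed at 0 or at 0.06 FPKM in the myeloma libraries.

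CD274 (PD-L1) passed the filter only through ARH-77, so its higher level there is a description only. It showed no difference with bortezomib resistance that passed the test. In ARH-77 it was 6.88 and 5.05 FPKM in WT and 6.92 and 5.41 FPKM in BtzR, overlapping groups with a log2 difference of 0.05 (95% interval -0.33 to 0.42). In the myeloma libraries it stayed between 0.12 and 0.92 FPKM. The log2 differences between BtzR and WT were 0.11 in AMO1 (95% interval -0.27 to 0.49), 0.12 in L363 (95% interval -0.26 to 0.50) and -0.21 in RPMI-8226 (95% interval -0.59 to 0.16), and the interaction test had an adjusted p of 0.549. PDCD1LG2 (PD-L2), the neighbouring gene and the other PD-1 ligand, was called in none of these comparisons and was at most 0.41 FPKM in the myeloma libraries.

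**Figure D3:**
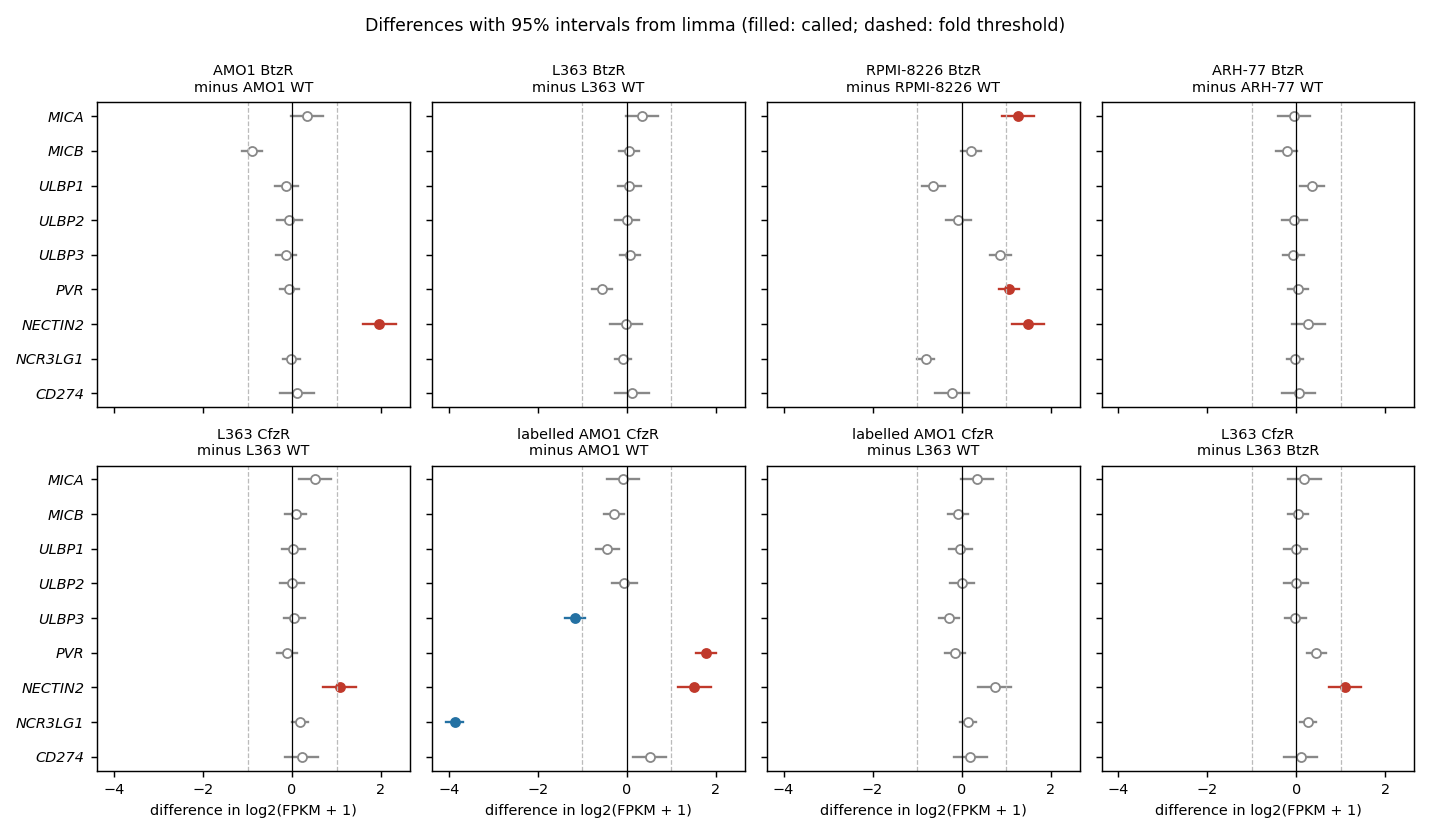
Difference in log2(FPKM + 1) with its 95% interval (x axis) for the 9 genes (y axis) in 8 comparisons, where filled points are called and dashed lines mark the fold threshold. NECTIN2 is filled in 5 panels and CD274 in none, and the panel of labelled AMO1 CfzR against AMO1 WT differs from the panel of the same libraries against L363 WT, where none is filled.

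Counted per comparison, 1 of 9 genes was called in AMO1 BtzR, where 9.18% of all 13089 tested genes were. It was 0 of 9 in L363 BtzR (background 2.06%), 3 of 9 in RPMI-8226 BtzR (13.8%) and 0 of 9 in ARH-77 BtzR (1.6%). The median log2 difference of the 9 genes was -0.06, 0.05, 0.21 and -0.04, against -0.00, 0.00, 0.05 and -0.04 over all tested genes. Where limma called 0 genes, 1 of 9 had an unadjusted p under 0.05 in L363 BtzR (PVR) and 1 in ARH-77 BtzR (ULBP1). At an adjusted p under 0.05 at any fold, 6 of 9 passed in RPMI-8226 BtzR, where 54.3% of genes did, 0 in ARH-77 BtzR (13.6%), 1 in L363 BtzR (11.2%) and 2 in AMO1 BtzR (51.2%). The libraries of BtzR and WT did not overlap for 7 of 9 genes in RPMI-8226 (73.8% of all tested genes), 5 in AMO1 (75.1%), 4 in ARH-77 (43.9%) and 3 in L363 (61.6%). Of the BtzR comparisons RPMI-8226 had the largest share of called ligand genes, and no test of a share was made. The interaction test was passed by 7 of 9 genes, close to the background of 71.1%, so it does not set these genes apart. In ARH-77 BtzR, NK-cell markers also differed: NKG7, a cytotoxic granule gene, went from 73.77 and 45.68 FPKM to 177.08 and 124.18 FPKM, and CD226, which encodes DNAM-1, from 1.03 and 1.77 FPKM to 5.32 and 5.31 FPKM. NCR3 (log2 difference -0.90) and CD96, a receptor of PVR, (-0.66) of the same list were lower, and PRF1, which encodes perforin, was higher (0.38), each past the test and short of the fold threshold. Their part in the ARH-77 values was not tested.

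Carfilzomib resistance was followed in L363, where the drugs can be compared at the same 90 nM dose, as 1 pair. NECTIN2 was 5.58 and 7.12 FPKM in L363 CfzR, above 2.34 and 2.61 FPKM in WT and 2.81 and 2.09 FPKM in BtzR. The log2-fold changes were 1.07 against WT (SE 0.173, limma adjusted p = 7.3e-04) and 1.09 against BtzR (SE 0.173, limma adjusted p = 8.1e-04). Without CfzR replicate 2 they were 0.92 and 0.94, without BtzR replicate 2 the latter was 0.94, and when only the compared libraries were fitted the adjusted p was 0.0623 and 0.116, so both calls were lost without CfzR replicate 2 and without the spread shared by all groups. NECTIN2 was the 1 gene of 9 called in each comparison (backgrounds 1.93% and 1.47%), with 1 and 2 of 9 past the test at any fold (8.47% and 6.13%) and 3 and 4 of 9 without overlap (52.2% and 46.8%). PVR was higher in CfzR (3.16 and 3.01 FPKM) than in BtzR (2.03 and 1.95 FPKM), a difference of 0.45 (limma adjusted p = 0.0140) below the fold threshold. MICA lay above WT in CfzR without overlap, at 6.39 and 6.81 FPKM against 4.24 and 4.43 FPKM. That log2 difference of 0.51 (95% interval 0.15 to 0.87) did not pass the test (limma adjusted p = 0.0830). For MICA the difference between the drugs was 0.18 (95% interval -0.18 to 0.54), for MICB 0.03 (-0.19 to 0.26), for CD274 0.10 (-0.28 to 0.47) and for NCR3LG1 0.27 (0.08 to 0.45, limma adjusted p = 0.0959). These intervals allow small differences in either direction for MICA, MICB and CD274. NCR3LG1, at 0.25 and 0.34 FPKM in CfzR and 0.08 and 0.07 FPKM in BtzR, was called higher in CfzR with a pseudocount of 0.1 (1.17, limma adjusted p = 9.3e-04) or 0.01 (1.83, limma adjusted p = 4.1e-04).

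In the libraries labelled AMO1 CfzR, NCR3LG1 was 0.20 and 0.33 FPKM, ULBP3 0.20 and 0.35 FPKM, PVR 2.97 and 3.01 FPKM and NECTIN2 4.50 and 5.08 FPKM. Against AMO1 WT 4 of 9 genes were called (background 17.1%): NCR3LG1 at -3.87, ULBP3 at -1.17, PVR at 1.78 and NECTIN2 at 1.51. CD274 was 0.12 and 0.12 FPKM in AMO1 WT and 0.58 and 0.60 FPKM in these libraries, a difference of 0.51 that passed the test short of the fold threshold (limma adjusted p = 0.0231). A pseudocount of 0.1 or 0.01 added CD274 (1.65 and 2.21) and ULBP1 (-1.71 and -2.64) to the calls, and under quantile normalization ULBP3 (-0.98) was not called. Against L363 WT 0 of 9 were called (background 1.66%), and NECTIN2 at 0.74 (limma adjusted p = 0.0157) was the 1 gene past the test at any fold (6.92%, against 7 of 9 and 57.7% for AMO1 WT). With an unadjusted p under 0.05 there were 2 of 9, ULBP3 and NECTIN2. The groups did not overlap for 7 of 9 genes against AMO1 WT (80.5%) and 6 of 9 against L363 WT (56.4%). NCR3LG1 and PVR thus lay near L363 WT and far from AMO1 WT. Which line these libraries came from was not tested beyond these values, and no direction of carfilzomib resistance in AMO1 is drawn from them.

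The parental lines differed in all 9 genes by the moderated F test, as did 92.6% of all tested genes. ULBP1, ULBP2 and CD274 passed the filter only through ARH-77, 1 of the lines in this F test, and so had to differ there. Their F tests therefore add no support. No count of ligand genes called against ARH-77 WT is given (24.3% of all genes were called there for AMO1 WT, 25.2% for L363 WT and 28.4% for RPMI-8226 WT). Between AMO1 WT and L363 WT 2 of 9 were called (16.6% of all genes), between AMO1 WT and RPMI-8226 WT 1 (21.9%), and between L363 WT and RPMI-8226 WT 2 (21.9%). In the ordering of groups, MICA ran from 16 ± 0.438 FPKM (SD, n = 2) in RPMI-8226 BtzR through 8.12 ± 0.226 in AMO1 BtzR to 2.82 ± 0.438 in ARH-77 BtzR, and the 5 groups between AMO1 BtzR and L363 WT overlapped from each to the next. NECTIN2 ran from 6.93 ± 0.0778 FPKM in AMO1 BtzR, which overlapped L363 CfzR at 6.35 ± 1.09, to 0.495 ± 0.0636 in RPMI-8226 WT, which overlapped ARH-77 WT at 0.62 ± 0.255. PVR was called lower in AMO1 WT than in L363 WT (log2 difference -1.93) and RPMI-8226 WT (-1.43), and higher in L363 WT than in ARH-77 WT (1.91). NECTIN2 was called higher in L363 WT than in RPMI-8226 WT (1.22) and ARH-77 WT (1.11).

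Other genes of the NK-cell and checkpoint pathways were followed by list, and their counts are read against the 9.18% of all tested genes called in AMO1 BtzR, 2.06% in L363 BtzR, 13.8% in RPMI-8226 BtzR and 1.6% in ARH-77 BtzR. Among the nectins and nectin-like molecules, 4 of 6 were tested. NECTIN3, an adhesion partner of the nectins, rose in AMO1 BtzR (0.86 and 0.77 to 3.95 and 3.79 FPKM, log2-fold change 1.42), and NECTIN1 fell in L363 BtzR (-1.23) and RPMI-8226 BtzR (28.05 and 29.27 to 9.56 and 9.57 FPKM, -1.49), where CADM1 fell too (-1.15). Short of the fold threshold, NECTIN3 was higher in RPMI-8226 BtzR as well (0.68 and 0.57 to 1.47 and 2.51 FPKM, 0.86, limma adjusted p = 6.0e-05) and lower in L363 BtzR (-0.79), and CADM1 was lower in AMO1 BtzR (-0.57, limma adjusted p = 4.0e-04). In AMO1 BtzR, NECTIN1 went the other way, from 103.53 and 88.24 to 178.74 and 163.81 FPKM (0.83, limma adjusted p = 1.8e-04). CADM4 was higher there too (0.87, limma adjusted p = 4.9e-06), both short of the fold threshold.

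Of the 8 other NK-receptor ligands, 2 were called in AMO1 BtzR, 2 in RPMI-8226 BtzR and 1 in ARH-77 BtzR. CLEC2B (AICL), the ligand of NKp80, fell in RPMI-8226 BtzR from 29.60 and 29.72 FPKM to 0.03 and 0.03 FPKM (log2-fold change -4.90) and in AMO1 BtzR from 17.33 and 19.38 FPKM to 7.94 and 5.26 FPKM (-1.37), while in ARH-77 BtzR it rose (1.34). In L363 BtzR it was higher without overlap (13.40 and 12.01 to 24.92 and 25.32 FPKM), a difference of 0.93 (limma adjusted p = 0.00361) short of the fold threshold. CD48, a ligand of 2B4, fell in RPMI-8226 BtzR from 6.02 and 5.74 FPKM to 0.20 and 0.49 FPKM (-2.36). CLEC2D (LLT1), a ligand of the inhibitory receptor CD161, was called lower in labelled AMO1 CfzR than in AMO1 WT (-2.79). Against L363 WT, 0 of the 8 genes were called in the libraries labelled AMO1 CfzR.

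Of the 8 other B7 family genes, 7 were tested, and 3 were called in AMO1 BtzR and 4 in RPMI-8226 BtzR. CD276 (B7-H3), an inhibitory member of the family, rose in AMO1 BtzR from 0.08 and 0.18 FPKM to 4.87 and 4.31 FPKM (log2-fold change 2.31) and in RPMI-8226 BtzR from 1.67 and 2.53 FPKM to 26.13 and 28.59 FPKM (3.21). CD86, a CD28 ligand, was listed at 0 in both RPMI-8226 BtzR libraries and was 10.58 and 9.47 FPKM in WT. HHLA2, a B7 relative, rose in RPMI-8226 BtzR from 6.46 and 6.92 FPKM to 41.05 and 48.14 FPKM (2.56). The 2 BtzR lines in which NECTIN2 was called higher were the same 2 in which CD276 was, whereas CD276 was not called in L363 BtzR (0.29) or ARH-77 BtzR (0.02). Those 2 lines also had the most calls over all genes (9.18% in AMO1 and 13.8% in RPMI-8226). In L363 CfzR against WT, NECTIN2 was called (1.07) and CD276 was not (0.31).

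**Figure D4:**
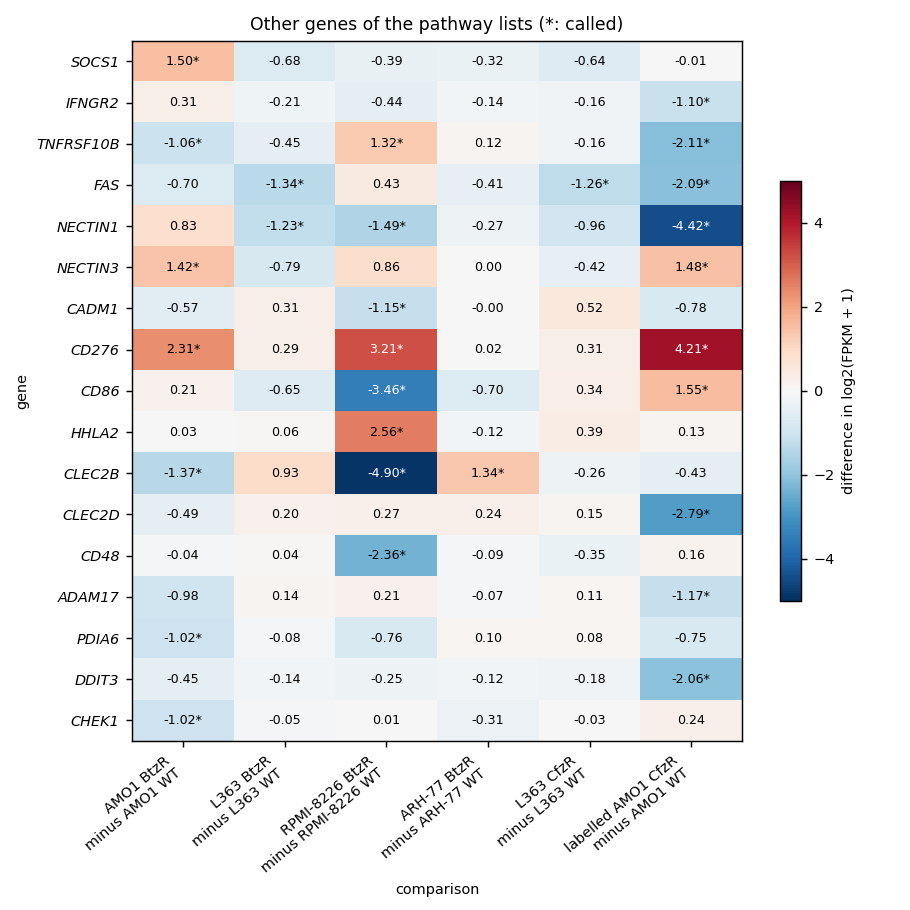
Difference in log2(FPKM + 1) (colour, and number in each cell) of other genes from the pathway lists (y axis) in 6 comparisons of a resistant with a parental group (x axis), where an asterisk marks a called gene. CD276 is called higher in AMO1 BtzR and RPMI-8226 BtzR, and CLEC2B is called lower in both.

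Among 9 genes of the interferon-gamma and PD-L1 route, 3 rose in AMO1 BtzR and 0 were called in the other BtzR lines. SOCS1, a feedback inhibitor of cytokine signalling, went from 0.32 and 0.18 FPKM to 2.97 and 2.12 FPKM (log2-fold change 1.5), while CD274 in the same libraries was 0.24 and 0.18 FPKM. At any fold, 6 of these 9 genes passed the test in AMO1 BtzR (51.2% of all genes) and 5 in RPMI-8226 BtzR (54.3%). In L363 BtzR 2 did (11.2%), and in ARH-77 BtzR 0 (13.6%). Their median log2 differences were 0.31, -0.38, -0.06 and -0.01, in that order of lines. Over all tested genes the medians were -0.00, 0.05, 0.00 and -0.04. IFNGR2, the interferon-gamma receptor subunit, was called lower in labelled AMO1 CfzR than in AMO1 WT (-1.10). Of 12 transcription factors and kinases known to act on NKG2D ligand genes, CHEK1 fell in AMO1 BtzR (-1.02) and DDIT3 was lower in labelled AMO1 CfzR than in AMO1 WT (-2.06), and the other BtzR lines had 0 calls. Of the shedding genes, PDIA6, a disulfide isomerase needed for MICA shedding, fell in AMO1 BtzR (-1.02). ADAM17, a sheddase, was lower in labelled AMO1 CfzR than in AMO1 WT (-1.17). Against L363 WT, the libraries labelled AMO1 CfzR had 0 calls in each of these lists. Of the 4 death receptor genes, FAS fell in L363 BtzR (3.25 and 3.60 to 0.60 and 0.91 FPKM, -1.34) and L363 CfzR (-1.26), and TNFRSF10B, a TRAIL receptor, fell in AMO1 BtzR (-1.06) and rose in RPMI-8226 BtzR (1.32). Others passed the test short of the fold threshold. TNFRSF10A, also a TRAIL receptor, was lower in AMO1 BtzR (-0.90) and RPMI-8226 BtzR (-0.83). FAS was lower in AMO1 BtzR (-0.70) and higher in RPMI-8226 BtzR (0.43), and CASP8 was higher in AMO1 BtzR (0.47).

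The lineage markers moved in the same comparisons. CIITA, the HLA class II activator, rose in AMO1 BtzR from 9.17 and 6.48 FPKM to 98.62 and 96.06 FPKM (log2-fold change 3.49), while the B-cell markers MS4A1 and PAX5 were at most 0.23 FPKM there. In RPMI-8226 BtzR the plasma cell markers CD38 (45.60 and 56.71 to 2.43 and 3.02 FPKM) and TNFRSF17 (94.00 and 98.13 to 7.86 and 4.93 FPKM) fell. IRF4 (0.64), PRDM1 (0.58) and XBP1 (0.43) of the same list were higher there and passed the test short of the fold threshold, and the summed level of the 7 markers was 515 to 537 FPKM in WT and 506 to 525 FPKM in BtzR. In AMO1 BtzR SDC1 (-1.22) and CD38 (-1.04) fell, while SLAMF7 (0.66) and PRDM1 (0.52) were higher and passed the test short of the fold threshold. CD3E, a T-cell receptor gene found at 6.73 and 10.66 FPKM in AMO1 WT, fell in AMO1 BtzR (-2.33). Their part in the ligand values was not tested.

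Among the 3 nearest table genes on each side of each ligand gene, in RefSeq order, some were called as well. CEACAM19, next to PVR, went from 0.02 and 0.02 FPKM to 1.42 and 1.05 FPKM in RPMI-8226 BtzR (log2-fold change 1.13), and BCAM, next to NECTIN2, from 0.02 and 0.07 FPKM to 2.14 and 1.78 FPKM (1.5). They were 1 of 3 tested neighbours of PVR and 1 of 4 of NECTIN2 called there, where 13.8% of all genes were. Past the test there and short of the fold threshold, ZNF180 near PVR (0.79) and TOMM40 next to NECTIN2 (0.59) were higher. Of 5 tested neighbours of MICA, 0 were called in RPMI-8226 BtzR. Past the test there, HLA-B (-0.96) and HLA-C (-0.64) were lower and DDX39B (0.77) and POU5F1 (0.63) higher. PVR shares 2.2% of its 50-base windows with CEACAM19. BCL3, which lies between the ligand genes of chromosome 19, rose in AMO1 BtzR (1.40) and did not pass the test in RPMI-8226 BtzR (-0.33). APOC1, on the other side of NECTIN2, was called higher in L363 CfzR than in L363 WT (1.2) and L363 BtzR (1.41). It was also called higher in labelled AMO1 CfzR than in L363 WT (1.10). NUCB2, next to NCR3LG1, fell in RPMI-8226 BtzR (-1.12). LRP11, near ULBP2, rose in AMO1 BtzR (1.69) and RPMI-8226 BtzR (2.96).

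By Pearson r over the 10 group means of log2(FPKM + 1), a description in which the groups share lines, the genes most like NECTIN2 were AIMP2 (0.936) and TMEM59L (0.923), those most like PVR were ASAH2B (0.989) and GJB2 (0.976), and those most like NCR3LG1 were PHKA1 (0.996) and ZNF160 (0.989). For MICA they were SELENON (0.976) and PRICKLE3 (0.952), for MICB NLE1 (0.979), and for ULBP3 FOXN2 (0.977) and PAPOLA (0.957). ULBP1 (APOBEC3F and FCER2, both 0.991), ULBP2 (LILRA3 and FCGR2C) and CD274 (B3GNT7 at 0.998 and LIMA1 at 0.993) were matched by genes that, like them, stood highest in ARH-77. Among the ligand genes themselves, MICA and MICB had r = 0.61 and NECTIN2 and PVR 0.35.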

How the data were processed

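RNA from 20 cell line libraries (10 groups of 2, by the line, drug and replicate in the labels) was extracted and sequenced by BGI on the BGISEQ-500. The authors deposited FPKM values for 18305 genes. The submitters' processing notes list HISAT2 2.0.4, Bowtie2 2.2.5 and RSEM 1.2.12, without roles, and the genome build is not given in the sources used here. FPKM is already scaled for length and library, and neither a count nor a depth accompanies it. Low values of short single-transcript genes fell within 0.1 of whole multiples of a unit in 55.0% to 66.8% of cases, which was too few to recover reads, so no counting interval or floor was computed.

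Groups were compared with limma 3.58.1 (R 4.3.3) on log2(FPKM + 1), with a mean for each group, 10 residual degrees of freedom and a mean-variance trend, for 13089 genes, those at a mean of 1 FPKM or more in some group. Adjusted p-values are Benjamini-Hochberg over these genes. With 2 libraries a group, an exact permutation test cannot go below p = 0.33, so none was made. The test was tested on simulated data for AMO1 BtzR against AMO1 WT: of 13027 genes, 199 of 200 given a log2 change of 2 were recovered with their sign, and 0 of the others were called. The changed genes were all at 5 FPKM or more in AMO1 WT. The noise was normal and independent between libraries. Each gene's variance was averaged with a fixed value, which lowers it for noisy genes. The check therefore does not show recovery of lower genes, such as NECTIN2 and PVR in that line, or of smaller changes. Nor does it show how many false calls the spread of the data themselves would give. Alternatives were other pseudocounts (0.1, 0.01), filters (none, 5 FPKM), rescaling to the same sum, quantile normalization, no trend, a replicate block, fits of fewer libraries, each library left out, and a call at any fold, which was chosen after seeing the data.

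The genes and lists were chosen with earlier results of these data known. Named genes of each other list are those called in a resistant against WT comparison with the largest change, at most 3 a list, and list genes next to a ligand gene. Further marker genes were picked with their values in view. Promoters and gene order are from RefSeq (GRCh38.p14), and shared windows of 50 bases from GENCODE 29 transcripts. Python 3.11.15, pandas 2.3.3, numpy 2.4.6 and matplotlib 3.10.9 were used. Some genes that the rules would name are not reported here.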

Additional observations from a re-analysis of the deposited data

Results flagged for a closer look

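The difference BtzR minus WT varied between AMO1, L363, RPMI-8226 and ARH-77 for 7 of the 9 genes. The test was the moderated F test of the interaction in limma, passed by 71.1% of all genes. Each BtzR group is 1 evolved line, so this test is against the spread between libraries. It cannot tell a dependence on the parental line from differences between single evolved lines. For NECTIN2 (adjusted p = 1.3e-05) the log2 differences were 1.96, -0.02, 1.49 and 0.26, in that order of lines. For PVR (adjusted p = 1.8e-06) they were -0.06, -0.56, 1.06 and 0.03. For MICA (adjusted p = 0.00130) they were 0.34, 0.33, 1.26 and -0.05, and for MICB (adjusted p = 6.6e-05) -0.90, 0.05, 0.21 and -0.22. For ULBP1 (adjusted p = 0.00113) they were -0.13, 0.05, -0.64 and 0.36, and for ULBP3 (adjusted p = 1.3e-04) -0.14, 0.07, 0.87 and -0.07. For NCR3LG1 (adjusted p = 9.3e-05) they were -0.02, -0.09, -0.81 and -0.04, and L363 WT and ARH-77 WT were at most 0.20 FPKM.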

How the results depend on the processing

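With a pseudocount of 0.1, 5 genes were called in RPMI-8226 BtzR and 2 between L363 CfzR and L363 BtzR, the latter also 2 with 0.01. L363 CfzR against WT had 0 calls under quantile normalization and 0 when only the compared libraries were fitted, as did L363 CfzR against BtzR (0) in the latter fit. Without the fold threshold the counts were 2 in AMO1 BtzR, 1 in L363 BtzR, 6 in RPMI-8226 BtzR, 7 and 1 in labelled AMO1 CfzR against AMO1 WT and L363 WT, and 2 between the drugs in L363. Leaving out each library in turn gave 0 to 1 calls for L363 CfzR against WT and for L363 CfzR against BtzR, and left the counts at 1 in AMO1 BtzR, 0 in L363 BtzR, 3 in RPMI-8226 BtzR (without BtzR replicate 1 these included ULBP3 at 1.00 in place of PVR at 0.90), 0 in ARH-77 BtzR, 4 and 0 in labelled AMO1 CfzR, 7 for the interaction and 9 for the parental lines. Over all 9 genes and the 8 comparisons outside the parental lines, 11 calls were gained and 8 lost under the alternatives that kept the fold threshold, and 1 gene (ULBP3 in labelled AMO1 CfzR against AMO1 WT) was not tested at a filter of 5 FPKM. Quantile normalization gained ULBP3 in RPMI-8226 BtzR (1.03) and lost it in labelled AMO1 CfzR against AMO1 WT (-0.98). Without the fold threshold 10 calls were gained. Of genes past the test at any fold, 0 reversed.

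The replicate block left the counts at 1, 0, 3 and 0 in AMO1, L363, RPMI-8226 and ARH-77 BtzR, 1 in L363 CfzR, 4 and 0 in labelled AMO1 CfzR, 1 between the drugs, 7 for the interaction and 9 for the parental lines. The parental count, here and with libraries left out, includes ULBP1, ULBP2 and CD274, which passed the filter only through ARH-77. Deviations of same-numbered libraries correlated at -0.00554 to 0.245, and nothing states that the numbers pair. The values rest on 2 libraries a group and on FPKM whose depth is not stated.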
